A study of Mus musculus with 77 samples.

Results

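Described here are 9 genes of the route by which cytokines of the interleukin-6 family act on cells through the receptor chain gp130 and the transcription factor STAT3, together with the C/EBP factors Cebpd and Cebpb and the nuclear IkappaB protein Bcl3. The genes are Lif, Osmr, Lifr, Il6st (which encodes gp130), Stat3, Socs3, Cebpd, Cebpb and Bcl3, of 21154 genes with a symbol on the array. They were selected on results from these same retinas, since Cebpd and Bcl3 lay among the largest OIR to control differences on P17 and P28. The differences on these days, and the changes of the OIR to control difference between days, are therefore given as descriptions. Where calls among the 9 genes are counted for them, nothing is read from the counts. The comparison on P12, the changes with age in control mice and the relations between mice of one group were tested. All 12 probes whose transcript carries one of these names were taken, 3 for Lifr, 2 for Stat3 and 1 for each other gene, and a gene is given by its brightest probe.

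The retinas came from C57BL/6 mice. On P7 whole litters were put in 75% oxygen (OIR group) or stayed in 21% oxygen (control group), and on P12 the OIR mice returned to room air. Each of the 3 days has 13 OIR mice. The control mice numbered 12 at the age of P12, 12 at P17 and 14 at P28, with both retinas of a mouse pooled on 1 array beside a universal mouse reference RNA. The litter of each mouse is not given in the sources used here, so that litter and oxygen cannot be told apart, and litter mates were counted as separate mice. In this model high oxygen first closes vessels of the central retina, the hypoxic retina then grows pathological vessels, and these later regress.

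The cytokines LIF, IL-6, oncostatin M and CNTF bind their own receptor chains, which pair with gp130 and start JAK kinases. The kinases phosphorylate STAT3, which enters the nucleus and raises, among others, Socs3, whose protein blocks the JAK kinases again. In the retina, LIF made by Müller glia is known to act on photoreceptors and glia after injury and to turn on glial genes such as Gfap. C/EBPδ is an acute-phase transcription factor whose gene responds to STAT3, and BCL3 binds the p50 and p52 subunits of NF-κB.

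Promoter sequences are shown for the 4 genes with a RefSeq promoter entry that differed most between OIR and control mice on P17, as the region of each gene to which its transcription factors could bind. RefSeq (GRCm38.p6) held entries for 8 of the 9 genes, with none for Cebpd. Each sequence is the 250 bases before the start site of the entry, 5′ to 3′ in the direction of the gene. For Socs3 and Osmr this window lies inside the annotated gene, which reaches to 117970336 and 6874968. The same holds for the Lifr windows, which are not shown. Capitals mark the STAT motif TTCNNNGAA.
Socs3 (GRCm38.p6, chr11:117969367-117969616, minus strand): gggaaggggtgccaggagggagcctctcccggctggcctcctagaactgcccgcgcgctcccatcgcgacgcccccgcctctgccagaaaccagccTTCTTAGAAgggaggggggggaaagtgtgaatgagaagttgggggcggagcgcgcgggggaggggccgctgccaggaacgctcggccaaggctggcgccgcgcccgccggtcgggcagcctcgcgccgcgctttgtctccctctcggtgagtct
Bcl3 (GRCm38.p6, chr7:19822756-19823005, minus strand): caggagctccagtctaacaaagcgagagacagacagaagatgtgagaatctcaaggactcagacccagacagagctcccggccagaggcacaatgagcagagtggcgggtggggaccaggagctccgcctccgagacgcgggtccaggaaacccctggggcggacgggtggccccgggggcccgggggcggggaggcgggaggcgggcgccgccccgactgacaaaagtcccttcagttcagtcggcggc
Stat3 (GRCm38.p6, chr11:100939541-100939790, minus strand): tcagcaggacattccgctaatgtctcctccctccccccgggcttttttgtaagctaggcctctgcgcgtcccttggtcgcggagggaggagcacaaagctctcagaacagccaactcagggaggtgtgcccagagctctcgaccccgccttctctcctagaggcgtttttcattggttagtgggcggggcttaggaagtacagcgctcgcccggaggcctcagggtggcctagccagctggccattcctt
Osmr (GRCm38.p6, chr15:6874314-6874563, minus strand): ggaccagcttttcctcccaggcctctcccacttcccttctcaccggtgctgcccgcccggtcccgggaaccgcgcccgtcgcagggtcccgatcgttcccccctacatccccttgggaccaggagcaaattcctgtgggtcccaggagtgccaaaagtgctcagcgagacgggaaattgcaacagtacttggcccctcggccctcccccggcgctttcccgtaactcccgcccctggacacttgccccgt
Both strands of each window, the 250 bases before the start site, were searched for this motif, for the C/EBP motif TTGCNNAA and for the AP-1 motif TGANTCA. Socs3 held TTCTTAGAA at −154 to −146 from its start site, and no window of the other 7 genes held the STAT motif, which occurred in 7.02% of all 32851 promoters. The C/EBP motif, present in 9.56% of all promoters, was found in none of them. The AP-1 motif, present in 6.75%, was found in Lif at −228 to −222. A match describes the letters only.

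All values below are log2 ratios of retina to reference after an offset of 50 was added to both signals (offset ratio), so that changes of dim genes are understated. On all 77 arrays Cy3 exceeded Cy5 for the rod genes Pde6b, Gnat1 and Sag, so Cy3 was read as the retina. This direction is opposite to the dye labels of the samples, which name Cy5 for the retina. In whole retinas, fewer cells of a type and less RNA per cell cannot be told apart. The retina signal of 13801 to 34328 probes, depending on the array, exceeded background clearly, and this number limits what dim genes can show. The 11 slides were scanned on 4 days, and all but 1 slide held both OIR and control mice. Within a day, both groups shared 7 slides for P12, 6 for P17 and only 3 for P28. The P28 control mice of scan day 3 had no P28 OIR mouse on their slides or scan day. Their arrays had 19969 to 21000 probes well above background, against 30835 to 34113 for the P28 OIR mice of scan day 4.

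Marker lists of the cells that a retina can hold were followed by their mean offset ratio. On P17 the 5 mural cell markers ranged from −0.68 to −0.11 in OIR and from −1.01 to −0.46 in control mice, with Cspg4 higher in OIR mice. The 10 microglia and macrophage markers ranged from −0.51 to −0.02 in OIR and from −0.89 to −0.11 in control mice, and Aif1 and Csf1r passed the test, higher in OIR mice. Of the 4 astrocyte markers, Gfap and Aldh1l1 passed, higher in OIR mice, and their list ranged from 0.55 to 1.17 against 0.26 to 0.80. S100b differed by −0.29 ± 0.18 without passing, and Pax2 was at background on every array. Of the 6 Müller glia markers only Vim passed, higher in OIR mice. The other 5 had negative differences that did not pass, from −0.31 ± 0.16 for Dkk3 to −0.72 ± 0.25 for Rlbp1, and the list ranged from 1.75 to 2.52 against 1.39 to 2.69. Of the 4 pigment epithelium markers Rpe65 was lower in OIR mice. None of 5 neutrophil and monocyte markers, 6 endothelial, 4 lens or 4 rod markers passed on P17. On P12 the endothelial list ranged from 0.04 to 0.38 in OIR and from 0.39 to 0.65 in control mice, without overlap. None of its 6 markers passed on that day. In control mice, list medians fell from P17 to P28 for microglia and macrophages (−0.41 to −0.83) and mural cells (−0.73 to −1.11). The pigment epithelium median also fell, to 0.41. Those of astrocytes (0.54 to 0.71) and lens (0.12 to 0.55) rose. How far these lists bear on the differences and the changes with age below was not tested.

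On P12, right after the oxygen, no gene of the 9 passed the test between OIR and control mice. The background was 0.0233% of all 55681 probes called with limma at an adjusted p under 0.05. Every adjusted p of the 12 probes was 0.9997 with limma and the Benjamini-Hochberg adjustment, and 0 of them had an unadjusted p under 0.05. Cebpd lay between −3.99 and −1.60 in OIR mice with a median of −2.69, and between −3.44 and −2.22 in control mice with a median of −2.97. The difference was 0.18 ± 0.18 (SE) with a 95% interval from −0.20 to 0.56, so that a change of the size given below for P17 lay outside it. Stat3 differed by 0.06 ± 0.14 with an interval from −0.24 to 0.35, and Socs3 by 0.18 ± 0.16 with an interval from −0.15 to 0.50. Bcl3 differed by 0.13 ± 0.19, but only 2 of 13 OIR and 2 of 12 control mice had it well above background, and with the deposited ratios its difference was −0.37. Of the receptors, Osmr differed by 0.09 ± 0.19, Il6st by 0.06 ± 0.14 and Lifr by −0.20 ± 0.17. Cebpb, the relative of Cebpd that drives acute-phase and inflammatory genes, differed by 0.25 ± 0.24.

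**Figure D1:**
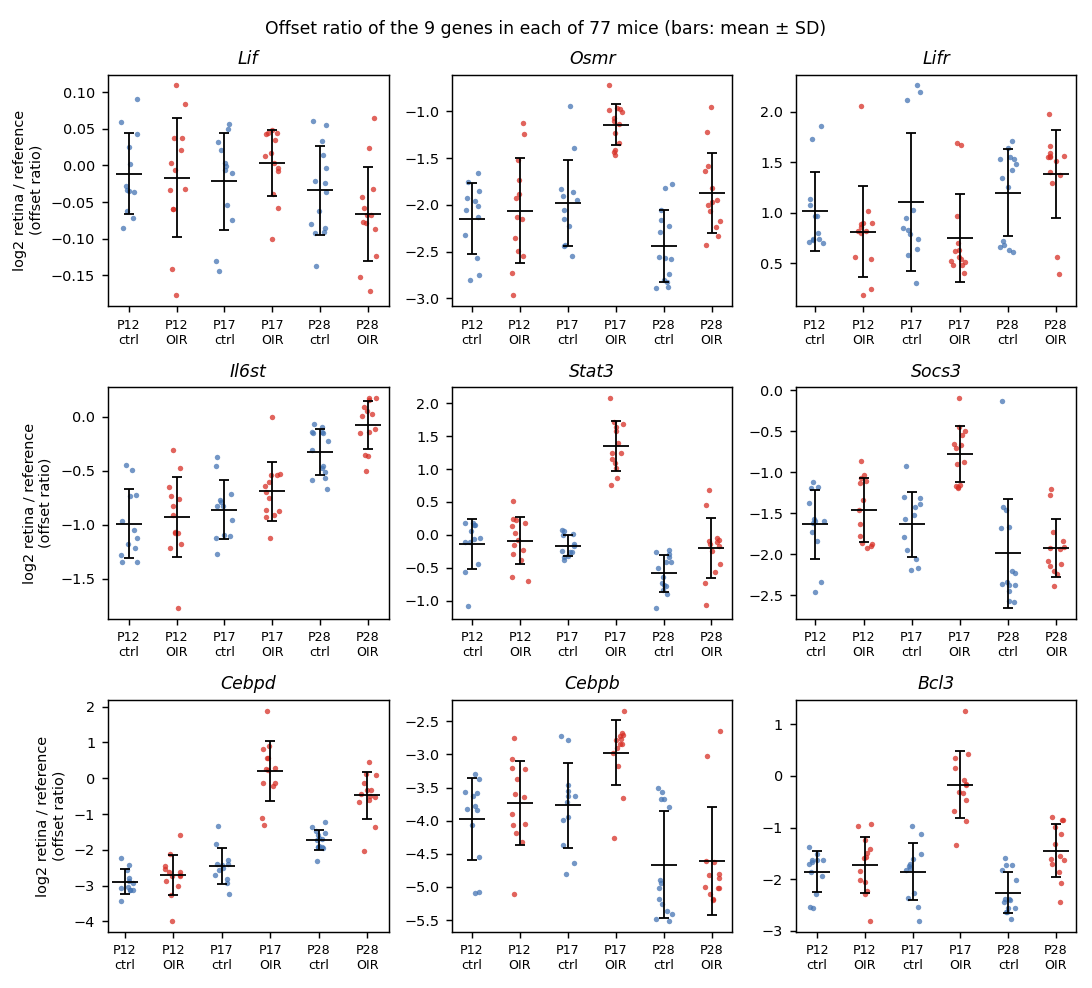
Offset ratio (log2 retina over reference, vertical axis) of the 9 genes in each mouse, 1 point per array, for control (blue) and OIR mice (red) on P12, P17 and P28; black bars give the mean ± SD. The scale differs between panels. On P17 the OIR mice of Cebpd and Stat3 lie above every control mouse, while on P12 the groups lie on top of each other for all 9 genes.

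On P17, the time of pathological vessels, Cebpd differed most of the 9 genes in the offset ratio. In control mice it lay between −3.24 and −1.33 with a median of −2.46, and in OIR mice between −1.31 and 1.89 with a median of 0.25. The highest control mouse was just below the lowest OIR mouse, so that the groups did not overlap. The difference was 2.65 ± 0.27 (SE, 13 OIR and 12 control mice), a 6.29-fold higher offset ratio, and it stayed between 2.51 and 2.78 when any 1 mouse was left out. In the offset ratio only 1 of 21154 genes, each by its brightest probe, had a larger rise, and no other setting was ranked. The study's own table of rises on P17 lists Esm1, Edn2, Bcl3, Apln, C4b and Pcolce above Cebpd. The OIR mice also varied more, with an SD of 0.84 against 0.50 in control mice.

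Bcl3, which binds NF-κB subunits in the nucleus, lay between −2.80 and −0.98 in control mice with a median of −1.76, and between −1.33 and 1.26 in OIR mice with a median of −0.18. Here 12 of 13 OIR mice were above all control mice. The difference was 1.68 ± 0.23, and all 13 OIR but only 4 of 12 control mice had Bcl3 well above background. Because of these dim control values the size depended strongly on the offset, with 3.44 at an offset of 0 and 4.06 in the deposited ratios. The Cebpd difference lay between 2.65 and 3.49 over the 11 settings, so that Bcl3 differed more than Cebpd in the deposited ratios. Unlike Bcl3, Cebpb was well above background in every mouse, with −4.80 to −2.72 in control and −4.26 to −2.34 in OIR mice. Its difference was 0.80 ± 0.22 with much overlap, as 4 of 13 OIR mice were above all control mice. This size too depended on the processing, with 0.62 to 1.40 over the 11 settings.

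Stat3, the transcription factor of the pathway, lay between −0.38 and 0.07 in control mice with a median of −0.21, and between 0.76 and 2.08 in OIR mice with a median of 1.25. The groups did not overlap, and the difference of 1.51 ± 0.12 (2.84-fold) was the one with the smallest error relative to its size. The second Stat3 probe was dim, well above background in 4 OIR mice and 1 control mouse on P17, and differed by 0.14 ± 0.03. Socs3, the inhibitor that STAT3 turns on, lay between −2.19 and −0.93 in control mice with a median of −1.55, and between −1.20 and −0.10 in OIR mice with a median of −0.71. Of the 13 OIR mice, 9 were above all control mice, and the difference was 0.86 ± 0.14.

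Among the receptors only Osmr, the chain that binds oncostatin M, differed by a similar amount. It lay between −2.55 and −0.94 in control mice with a median of −2.00, and between −1.46 and −0.72 in OIR mice with a median of −1.10. The difference was 0.84 ± 0.14, and the highest control mouse lay above all OIR mice but 1. Il6st, the gp130 chain that all these cytokines share, differed by 0.17 ± 0.11 and Lifr, the LIF receptor chain, by −0.35 ± 0.22, with both groups overlapping. The 2 other Lifr probes differed by −0.10 ± 0.03 and −0.09 ± 0.05. Lif itself was not well above background in any mouse on P12 or P17 and in only 1 OIR and 1 control mouse on P28, so that its ratios, between −0.18 and 0.11 over all mice, hold no measured level.

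By the limma fit, 5 of the 9 genes were called on P17 (Cebpd, Bcl3, Stat3, Socs3 and Osmr), where 1.13% of all probes were called. Since this contrast chose the genes, nothing is read from that count. Cebpb was called in 8 of 11 settings. Where both groups shared a slide, the difference had the same sign on 6 of 6 slides for Cebpd, Bcl3, Stat3, Socs3, Osmr and Cebpb. For Cebpd it ranged from 2.03 to 3.96 between slides, for Bcl3 from 0.86 to 3.27 and for Stat3 from 1.18 to 1.73. For Socs3 it ranged from 0.39 to 1.24, for Osmr from 0.34 to 1.23 and for Cebpb from 0.0015 to 1.08, so that 1 slide showed no Cebpb difference. Each of these slides held 2 OIR and 1 or 2 control mice of P17. In the reference channel alone none of the 9 genes passed in any comparison (limma, lowest adjusted p = 0.68).

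**Figure D2:**
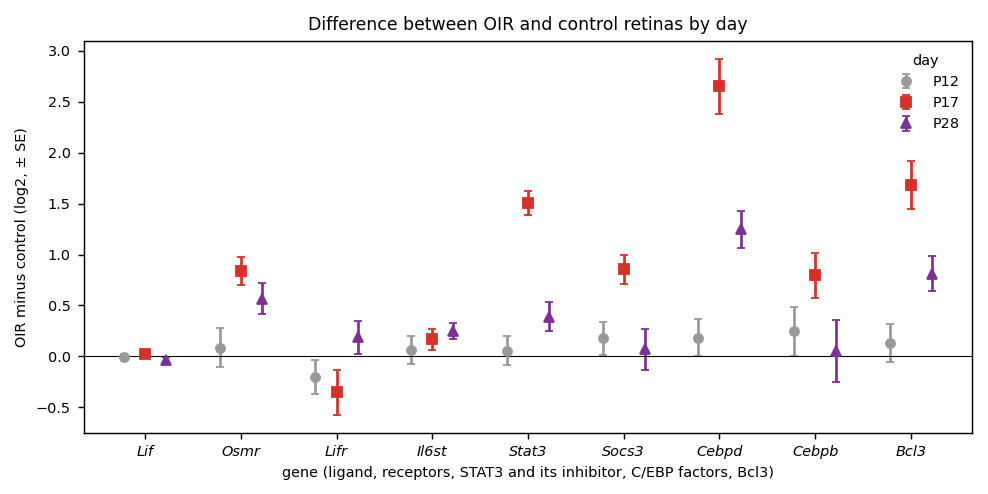
OIR minus control difference of the offset ratio (log2, vertical axis) for the 9 genes on P12 (grey circles), P17 (red squares) and P28 (purple triangles), with bars for ± SE; 13 OIR mice were set against 12, 12 and 14 control mice. On P17 the differences run from −0.35 for Lifr to 2.65 for Cebpd, and on P28 Cebpd (1.25) and Bcl3 (0.81) remain the highest.

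On P28, when the vessel changes regress, the differences were smaller for most of the genes. Cebpd lay between −2.31 and −1.21 in control mice with a median of −1.72, and between −2.05 and 0.46 in OIR mice with a median of −0.45. All but 2 OIR mice were above every control mouse (11 of 13), and the difference was 1.25 ± 0.18. Bcl3 lay between −2.76 and −1.59 in control mice with a median of −2.39, and between −2.44 and −0.80 in OIR mice with a median of −1.56. Of the OIR mice, 7 of 13 were above all control mice, and the difference was 0.81 ± 0.17, against 2.21 in the deposited ratios.

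For Osmr the medians were −2.56 in control and −1.97 in OIR mice, a difference of 0.57 ± 0.15. Stat3 had medians of −0.57 and −0.14 and differed by 0.39 ± 0.14, with 8 of 13 OIR mice above all control mice. Il6st had medians of −0.27 and 0.01 and differed by 0.25 ± 0.08. Socs3 ranged from −2.59 to −0.13 in control mice and from −2.38 to −1.20 in OIR mice. The control mouse at −0.13 stood far from the others, and the Socs3 difference of 0.07 ± 0.20 came to 0.21 without it. Cebpb differed by 0.05 ± 0.30 and Lifr by 0.19 ± 0.16. On the 3 slides that held both P28 groups, Socs3 differed by 0.22 to 0.51 and Cebpb by 0.15 to 0.36. Lifr differed there by 0.05 to 0.08 and Cebpd by 0.76 to 1.64. The fit called 1 of the 9 genes, Cebpd, where 0.0611% of all probes were called. Over all 11 settings Bcl3 was called in 9 and Osmr in 7.

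The order of the group medians shows how the genes part. For Cebpd it ran upward from P12 control (−2.97) and P12 OIR (−2.69) through P17 control (−2.46) and P28 control (−1.72) to P28 OIR (−0.45) and P17 OIR (0.25). Neighbours in this order overlapped in their ranges throughout. For Stat3 the lowest group was P28 control (−0.57), 4 groups lay between −0.21 and −0.06, and P17 OIR (1.25) stood alone above them. Between P12 and P17 the difference between OIR and control mice grew by 2.47 ± 0.31 for Cebpd, by 1.56 ± 0.29 for Bcl3 and by 1.45 ± 0.20 for Stat3. The fit called these 3 of the 9 genes and 0.48% of all probes. From P17 to P28 it changed by −1.41 ± 0.31 for Cebpd, by −0.87 ± 0.28 for Bcl3 and by −1.12 ± 0.19 for Stat3, and the fit called Cebpd and Stat3 and 0.278% of all probes. As these changes contain the P17 difference that chose the genes, nothing is read from either count.

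The genes also changed with age in control mice. This change did not choose them, but the P17 and P28 control mice are one side of the differences that did. The tests with age are therefore not fully independent of the choice. From P12 to P17 none of the 9 genes passed the test, where 1.28% of all probes were called. Cebpd differed by 0.44 ± 0.23 in the offset ratio without passing (limma adjusted p = 0.63), but it passed in 4 of 11 settings, with 1.26 in the deposited ratios (adjusted p between 0.0088 and 0.66 over all settings). From P17 to P28, where 13.4% of all probes were called, 5 of the 9 genes passed.

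Il6st was higher on P28 than on P17 by 0.53 ± 0.11 (limma adjusted p = 0.00033), and all 14 P28 mice were above the P17 median. Its control values went from between −1.27 and −0.37 on P17 to between −0.67 and −0.06 on P28. Cebpd was higher by 0.72 ± 0.22 (adjusted p = 0.017), again with all 14 mice above the P17 median. Both passed in all 11 settings. Lower values gave a change of −0.89 ± 0.26 for Cebpb (limma adjusted p = 0.016), of −0.42 ± 0.14 for Stat3 (adjusted p = 0.027) and of −0.46 ± 0.16 for Osmr (adjusted p = 0.045). These 3 calls were less firm, as Stat3 passed in 9 settings, Cebpb in 8 and Osmr in 4, and Osmr turned to 0.06 in the retina channel alone. With slide as a block the calls of Stat3 (−0.33, limma adjusted p = 0.11) and Osmr (−0.17, adjusted p = 0.31) were lost. The arrays also differed in depth, with 13801 to 27918 probes well above background in P17 and 19969 to 34328 in P28 control mice, and its part in these changes was not tested. Socs3 (−0.36 ± 0.17), Bcl3 (−0.41 ± 0.20), Lifr (0.09 ± 0.19) and Lif (−0.01 ± 0.03) did not pass. 

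**Figure D3:**
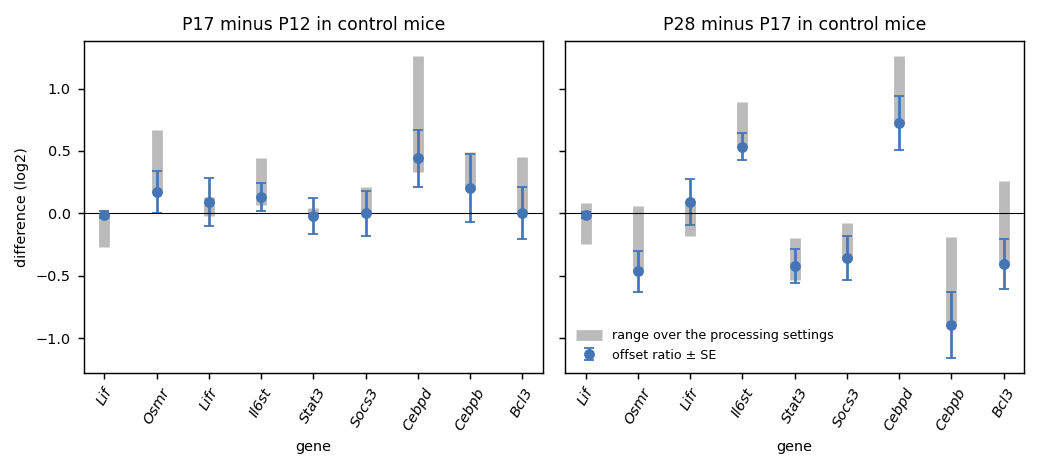
Differences with age in control mice (log2, vertical axis) for the 9 genes, P17 minus P12 (left, 12 against 12 mice) and P28 minus P17 (right, 14 against 12 mice). Blue points give the offset ratio ± SE and grey bars the range over all processing settings. From P17 to P28 the whole grey bar lies above 0 for Il6st and Cebpd and below 0 for Stat3, Socs3 and Cebpb.

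Mice of one group differed from each other, and these deviations from the 6 group means were compared between the genes over the 77 mice. This is separate from the difference between the groups that chose the genes. Of 36 pairs, 27 correlated by a two-sided permutation test (100000 permutations, Benjamini-Hochberg over the 36 pairs), 20 of them positively. The smallest p these permutations can give is 1e-05. The number of probes above background differs between arrays and moves many probes together, so the pairs were looked at again in 10 other settings. In 8 pairs the correlation passed with the same sign in all 11 settings, and in 20 pairs the sign of r turned in at least 1 of them. The share of all gene pairs that would pass was not computed, so nothing is read from these counts. Lif passed with Bcl3 at r = 0.28, but had rank 4237 of 20986 genes by r with Bcl3, where Osmr had rank 3. Stat3 had rank 1431 by r with Socs3.

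Cebpd went with Bcl3 (Pearson r = 0.71, Spearman rho = 0.60, both with a permutation p of 1e-05), with Il6st (r = 0.70, rho = 0.64) and with Osmr (r = 0.55, rho = 0.53). Without the 2 most distant mice r was 0.67, 0.67 and 0.54, and with slide means removed 0.76, 0.67 and 0.61. Bcl3 went with Osmr (r = 0.85, rho = 0.89, permutation p of 1e-05; 0.87 without the 2 most distant mice and 0.82 with slide means removed). A further group of pairs was Stat3 with Socs3 (r = 0.63, rho = 0.66), Stat3 with Cebpb (r = 0.52, rho = 0.50) and Cebpb with Socs3 (r = 0.81, rho = 0.86), each with a permutation p of 1e-05. With slide means removed these were 0.54, 0.43 and 0.65, and without the 2 most distant mice 0.61, 0.43 and 0.80. With the number of probes above background regressed out they were 0.50, 0.33 and 0.43, against 0.80, 0.70 and 0.75 for Cebpd with Bcl3, Il6st and Osmr and 0.80 for Bcl3 with Osmr.

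Cebpd and Stat3, the members with the firmest difference on P17, had no correlation between mice that passed the test (r = 0.02, rho = −0.04, permutation p = 0.88), but r lay between −0.45 and 0.20 over the settings. It passed as a negative relation in 3 of 11 settings, the deposited ratio (r = −0.29, permutation adjusted p = 0.045), the retina channel alone (r = −0.33, adjusted p = 0.011) and control mice alone (r = −0.45, adjusted p = 0.004), and as a positive one in none. Stat3 and Il6st ran against each other (r = −0.45, rho = −0.53, permutation p = 0.00011 and 1e-05; −0.42 without the 2 most distant mice, −0.52 with slide means removed). This passed in 10 of 11 settings, and missed in OIR mice alone with r = −0.27. Cebpb and Lifr were the strongest opposing pair (r = −0.88, rho = −0.89, permutation p of 1e-05; −0.86 without the 2 most distant mice), but r was −0.40 once the number of probes above background was regressed out. Some high values rested on the processing. Bcl3 with Socs3 had r = 0.73 (rho = 0.84, permutation p of 1e-05; 0.76 without the 2 most distant mice) in the offset ratio and −0.17 in the deposited ratio. Socs3 with Osmr went from 0.78 (rho = 0.82, permutation p of 1e-05; 0.80 without the 2 most distant mice) to −0.25.

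**Figure D4:**
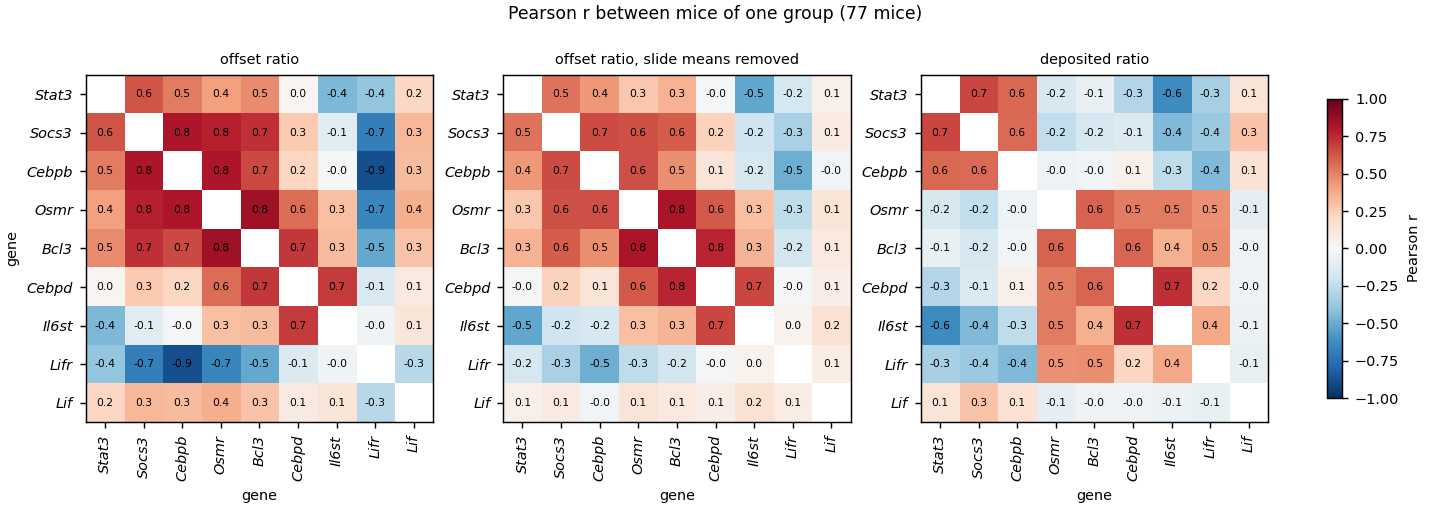
Pearson r between each pair of the 9 genes over 77 mice, after the mean of each group was taken off, in the offset ratio (left), with slide means removed as well (middle) and in the deposited ratio (right). Red is positive and blue negative. Cebpd, Bcl3 and Osmr form a positive block and Stat3, Socs3 and Cebpb another one in all 3 panels. The relations of Bcl3 and Osmr with the second block turn from positive on the left to near or below 0 on the right. Those of Cebpd lie between 0.02 and 0.26 on the left and between −0.29 and 0.05 on the right.

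By the same measure over 20986 genes, the genes most like Cebpd between mice were Pdlim4 (r = 0.76), H2-Ab1 (0.73), Bcl3 (0.71), Shisa5 (0.70) and Rarres2 (0.70), as a description over 77 arrays that share slides and depth. Here 99% of all genes lay below r = 0.52. For Bcl3 they were Tnnt2 (0.90), Tgm2 (0.85), Osmr (0.85), Spidr (0.84) and Antxr2 (0.84), with 99% of genes below 0.65. For Socs3 they were Timp1 (0.87), Capg (0.84), Tuba1c (0.84), Cd68 (0.83) and Tpm4 (0.83), with 99% below 0.74. H2-Ab1 is a class II histocompatibility gene. With slide means removed, r with Cebpd was 0.76, 0.83, 0.76, 0.65 and 0.65, in the order of genes given above. For Bcl3 it was 0.87, 0.84, 0.82, 0.82 and 0.79, and for Socs3 0.79, 0.69, 0.72, 0.70 and 0.67.

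Other genes of the pathway were taken from 7 lists by role, 77 genes in all. On P12 none of them was called. On P17, where 1.13% of all probes were called, 11 were higher in OIR mice and none lower. All 11 were among the 25 known STAT3 targets, whose median difference was 0.33 against −0.0024 over all genes by their brightest probe. The list holds genes that the study's own tables name for these retinas, Edn2 and Gfap among them, and is not independent evidence of a direction.

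The largest difference was that of the metallothionein gene Mt2, which binds zinc and copper, with 2.24 ± 0.20 (limma adjusted p = 8.4e-08), beside Mt1 with 1.44 ± 0.13. Mt2 had medians of −2.78 in control and −0.45 in OIR mice. Edn2, the vasoconstrictor endothelin 2, had medians of 0.02 and 1.71 and rose by 1.67 ± 0.21 (adjusted p = 1.6e-05). Vim and Gfap, the intermediate filaments of glia, rose by 1.19 ± 0.10 and 0.97 ± 0.10. Vegfa, the main vessel growth factor, rose by 0.97 ± 0.08, and its lowest OIR mouse (0.26) lay above its highest control mouse (−0.19). Lcn2 (0.86 ± 0.18), which encodes lipocalin 2, and Timp1 (0.85 ± 0.21), which encodes an inhibitor of metalloproteinases, also passed. So did Tnfrsf1a (0.67 ± 0.15), the tumor necrosis factor receptor, the cyclin gene Ccnd1 (0.55 ± 0.13) and Fgf2 (0.11 ± 0.02), a growth factor gene that was dim. The other 14 genes of the list did not pass, such as Hif1a (−0.46 ± 0.17) and C3 (0.81 ± 0.27), and Icam1 was at background on every array.

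**Figure D5:**
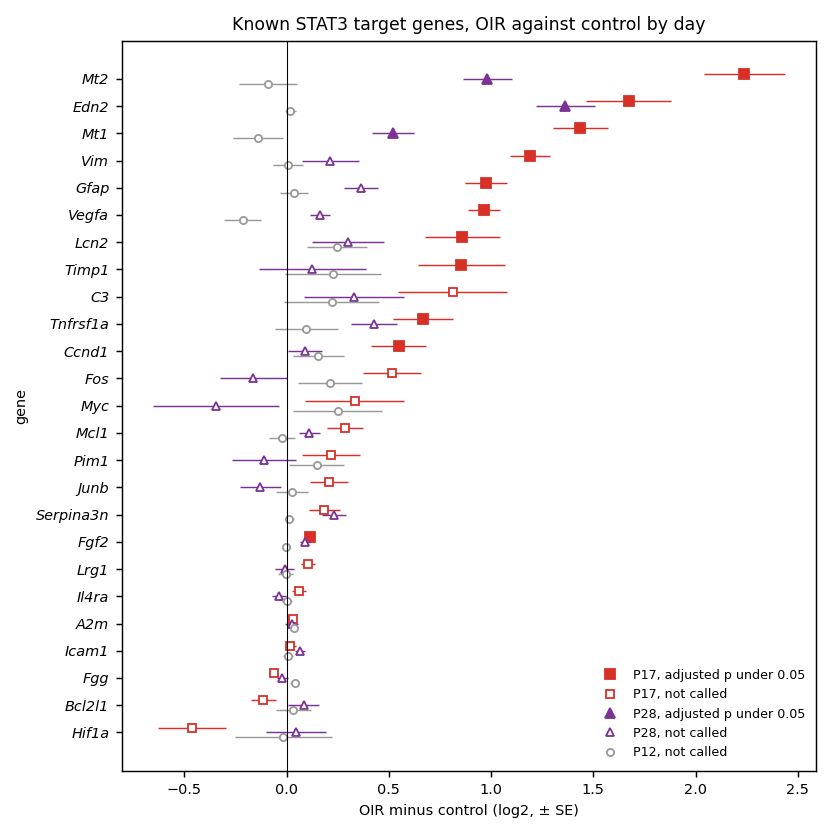
OIR minus control difference (log2 offset ratio, horizontal axis, ± SE) of 25 known STAT3 target genes on P12 (grey circles), P17 (red squares) and P28 (purple triangles). Filled symbols passed an adjusted p under 0.05 with limma. On P17, 11 genes passed, from Fgf2 (0.11) to Mt2 (2.24), on P28 Edn2, Mt2 and Mt1 passed, and on P12 none did. Of all probes, 1.13% passed on P17, 0.0611% on P28 and 0.0233% on P12.

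None of the remaining lists had a call on P17. Of the 8 other gp130 cytokine genes, Il6 and Osm were at background on every array, and Cntf differed by 0.14 ± 0.09. Of 5 partner receptors, Il6ra differed by 0.33 ± 0.19 and Cntfr by −0.20 ± 0.13. Of 10 JAK kinases and other STATs, Jak3 differed by 0.32 ± 0.15 and Stat6 by 0.31 ± 0.21, and of 15 other inhibitors of JAK-STAT signaling, Ptpn6 by 0.30 ± 0.19 and Socs5 by −0.25 ± 0.13. Of 10 NF-κB and IκB genes, Relb differed by 0.38 ± 0.16 and Nfkb2, whose p52 product BCL3 binds, by 0.38 ± 0.26. Of the 4 other C/EBP genes, Ddit3 differed by 0.16 ± 0.08 and Cebpa by 0.06 ± 0.03.

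On P28, where 0.0611% of all probes were called, 3 of the 77 genes were called, all higher in OIR mice. These were Edn2 (1.36 ± 0.14, limma adjusted p = 8.5e-06), Mt2 (0.98 ± 0.12, adjusted p = 0.0001) and Mt1 (0.52 ± 0.10, adjusted p = 0.04). Gfap (0.37 ± 0.08), Vegfa (0.16 ± 0.05) and Vim (0.21 ± 0.14) did not pass. In control mice Mt1 and Mt2 rose from P12 to P17 by 1.14 ± 0.13 and 1.29 ± 0.16 and Stat5b by 0.39 ± 0.10, while Socs2 fell by 0.18 ± 0.03. Then, up to P28, 7 of the 77 genes were higher and 8 lower, where 13.4% of all probes and 8604 of the 32409 above background were called. Among the inhibitors, Pias2 (0.27 ± 0.06), Ptpn1 (0.22 ± 0.05), Ptpn11 (0.27 ± 0.09) and Pias4 (0.18 ± 0.06) were higher, while Socs1 (−0.30 ± 0.10) and Socs2 (−0.12 ± 0.03) were lower. Stat5a (−0.41 ± 0.08), Il6ra (−0.57 ± 0.19), Timp1 (−0.89 ± 0.24), Myc (−0.81 ± 0.27) and Vim (−0.49 ± 0.11) were lower as well. Ddit3 (0.46 ± 0.09), Edn2 (0.53 ± 0.15) and Bcl2l1 (0.32 ± 0.08) were higher.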

How the data were processed

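The retina arrays of 77 mice were analyzed. Per the file headers, Agilent Feature Extraction (version 10.7.3.1) gave the median signal and local background of each spot as intensity, without normalization, and processed intensity after background subtraction and dye normalization. The log2 values of the authors' table are processed Cy3 over Cy5, which were recovered from the scanner files within 0.001 for 100% of single-spot probes. The study used GeneSpring GX with a moderated test and Benjamini-Hochberg adjustment, and the normalization settings are not given in the sources used here.

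For the offset ratio, median signals were corrected with normexp (offset 50) and normalized by loess within each array with limma 3.58.1 (R 4.3.3, package data.table in version 1.17.8). Outlier spots (0.273 to 0.548% of 62976 spots) were left out and spots of a probe averaged. Oxygen groups were compared per day with limma over 55681 probes, with Benjamini-Hochberg adjustment and a threshold of 0.05. Changes with age came from one model of 6 group means. Correlations were computed in Python 3.11.15 with numpy 2.4.6. A gene is given by its brightest probe. Named are the 9 genes, every pathway gene called, the 2 largest differences on P17 of each list and the 5 genes most like Cebpd, Bcl3 and Socs3. Some genes that this rule names are not reported here. The genes, lists and tests were chosen with earlier results of these data known. The procedure was tested on simulated data with independent noise, without slide, depth or litter effects, so that this test cannot show how such effects bear on the results. Limits of depth are given by the number of probes above background, since arrays give no counts.

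Other settings left out the background subtraction or used an offset of 0, the deposited ratio, the retina channel alone (quantile normalization), slide as a block, only probes above background in at least 50% of the arrays of a group, the mean of all probes of a gene, and a different grouping of the models. Scan day as a block, and the deposited ratio with slide as a block, were added after the data were seen. Symbols came from the transcript of each probe through RefSeq.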

Additional observations from a re-analysis of the deposited data

Results flagged for a closer look

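The difference between OIR and control mice was itself compared between days in one limma model, and 5 values of the 9 genes stood out. Between P12 and P17 the difference was larger on P17 by 2.47 for Cebpd, by 1.56 for Bcl3 and by 1.45 for Stat3 on the log2 scale. For P17 to P28 the values were −1.12 for Stat3 and −1.41 for Cebpd. These contrasts contain the P17 and P28 differences that chose the genes, so they are descriptions and no p is given. Among the 77 other pathway genes, 7 had a larger difference on P17 than on P12, with Mt2 (2.33), Edn2 (1.65) and Mt1 (1.57) first. A smaller difference on P28 than on P17 was found for 5 (Mt2, Vim, Mt1, Vegfa and Gfap). Of all probes, 0.48% and 0.278% were called in these 2 contrasts, and the list is not independent of the study's own tables. The groups held 12 to 14 mice, and no test for single outlying mice was applied.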

How the results depend on the processing

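None of the 9 genes was called on P12 in any of 11 settings by limma at the adjusted threshold. Over the tested values of single genes, which are those of P12 and of age in control mice, 11 lost and 6 gained a call under another setting, and 38 turned sign. On P28, 1 member was called, but 3 without background subtraction, at an offset of 0, in the deposited ratio, in the retina channel alone, with slide as a block or with scan day as a block, 2 with only probes above background or with the mean of all probes, and 4 in the deposited ratio with slide as a block. From P12 to P17 in control mice, 0 members became 1 at an offset of 0 and in the retina channel, and 2 in the deposited ratio with and without slide. In control mice, 5 members called from P17 to P28 became 3 in the deposited ratio, the retina channel or with slide as a block, and 2 in the deposited ratio with slide. The OIR to control difference changed from P12 to P17 in 3 members, and in 5 in the deposited ratio with and without slide and in the retina channel. Of the other pathway genes, 11 were called on P17 against 17 in the deposited ratio and the retina channel and 21 in the deposited ratio with slide, and 3 on P28 against 6 in the retina channel, 5 in one model for all days and 6 with scan day. Of 27 correlated pairs, 16 were called at an offset of 0 and 17 with slide means removed. Over all probes, the calls on P17 went from 631 to 1690 in the retina channel, those on P28 from 34 to 166 and those on P12 from 13 to 41. In control mice those from P12 to P17 lay between 419 and 2326.

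Signs turned for small differences. On P12, Bcl3 was −0.35 at an offset of 0, −0.37 in the deposited ratio, −0.18 in the retina channel, −0.072 with slide, −0.016 with scan day and −0.27 in the deposited ratio with slide. Osmr was, in this order, −0.19, −0.33, −0.22, −0.13, −0.063 and −0.32. Il6st was −0.029 in the deposited ratio, −0.057 in the retina channel, −0.040 with slide, −0.0052 with scan day and −0.077 in the deposited ratio with slide. Cebpd was −0.00030 with slide, and Lif 0.074 at an offset of 0 and 0.034 in the retina channel. From P12 to P17 in control mice, Stat3 was 0.029 with slide, 0.037 with scan day and 0.042 in the deposited ratio with slide, Lif 0.0023 with slide and Lifr −0.018 with scan day. Between P17 and P28, Bcl3 was 0.26 in the deposited ratio, 0.21 in the retina channel and 0.24 in the deposited ratio with slide, and Osmr 0.059 in the retina channel. Lif was 0.014 with slide, 0.0033 with scan day and 0.085 in the deposited ratio with slide. Lifr was −0.18 at an offset of 0, −0.15 in the deposited ratio, −0.039 in the retina channel, −0.077 with slide, −0.16 with scan day and −0.17 in the deposited ratio with slide. The cause was not tested. No paired analysis was possible because no mouse number is shared between groups.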
